A study of Danio rerio with 12 samples.

Results

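The genes that encode glutamate and GABA receptors were examined in RNA of whole zebrafish larvae with and without functional elmo2. Members were all genes whose symbol starts with gria, grin, grik, grid or grm and a digit, or with gabra, gabrb, gabrg, gabrd, gabrr or gabbr, upper and lower case alike. This gave 70 of the 32520 listed genes, under 52 symbols. The symbol rule also took in the 2 genes listed as GRID2IP, which encode delphilin, a protein that binds a delta receptor and is not itself a receptor, so 68 members encode receptors. The elmo2-/- samples came from larvae of a CRISPR/Cas9 line with a frameshift deletion in elmo2, and the elmo2+/+ samples from larvae without it, both in the Tg(fli1:EGFP) background, in which the fli1 promoter drives green fluorescent protein in blood vessels. There were 6 samples per genotype, each a pool of 30 larvae at 120 hours post fertilization (hpf), so a value stands for a pool and not for a single animal. The labels name no treatment.

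Glutamate is the main excitatory transmitter of the vertebrate brain, and GABA the main inhibitory one. Ionotropic glutamate receptors (AMPA, NMDA and kainate types) and GABA-A receptors are ion channels made of several subunits, whereas metabotropic glutamate receptors and GABA-B receptors act through G proteins. In zebrafish many of these genes are present as a pair of copies, because the genome of the teleost ancestor was duplicated. These genes are best known from the brain, the spinal cord and the retina. The tissue that the receptor RNA came from was not measured in these whole larvae, and in such bulk samples fewer neurons and less receptor RNA per neuron cannot be told apart.

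Library totals lay between 20116203 and 20939679 estimated counts. CPM (counts scaled to the library total) below carry a TMM correction of that total, and fold changes are elmo2-/- against elmo2+/+ on the log2 scale. Levels of different genes are compared in TPM, a unit of relative transcript abundance that takes transcript length into account. Levels of elmo2 itself were 31.4 to 51.6 CPM in the elmo2-/- samples and 56.3 to 92.4 CPM in elmo2+/+ (log2 fold change -0.93, SE 0.15, exact two-sided permutation p 0.00216, the smallest that 6 against 6 samples allow, edgeR adjusted p 0.642). The genotypes did not overlap. All 20 pan-neuronal marker genes passed the filter on low counts, with summed levels of 2101 to 2418 TPM in elmo2-/- and 1936 to 2704 TPM in elmo2+/+. Library numbers in the labels are 1 to 6 for elmo2+/+, and 7, 8 and 13 to 16 for elmo2-/-. A batch that follows these numbers and the genotype therefore cannot be told apart. Nothing in the labels says whether the pools came from separate clutches, and p-values measure only the spread between these pools.

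All 70 members passed the filter on low counts, and the lowest estimated count of any member in any sample was 11. Mean TPM over the 12 samples ran from 0.828 for GABBR1 to 93.4 for GRIN1 (ENSDARG00000027828), with a median gene at 5.76. There were 10 members below 2 TPM, 39 from 2 to 10 TPM and 21 at 10 TPM or more. The 6 members at 30 TPM or more were both copies of GRIN1, a copy of GRIA3, both copies of GRIA2, and GABRD.

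**Figure D1:**
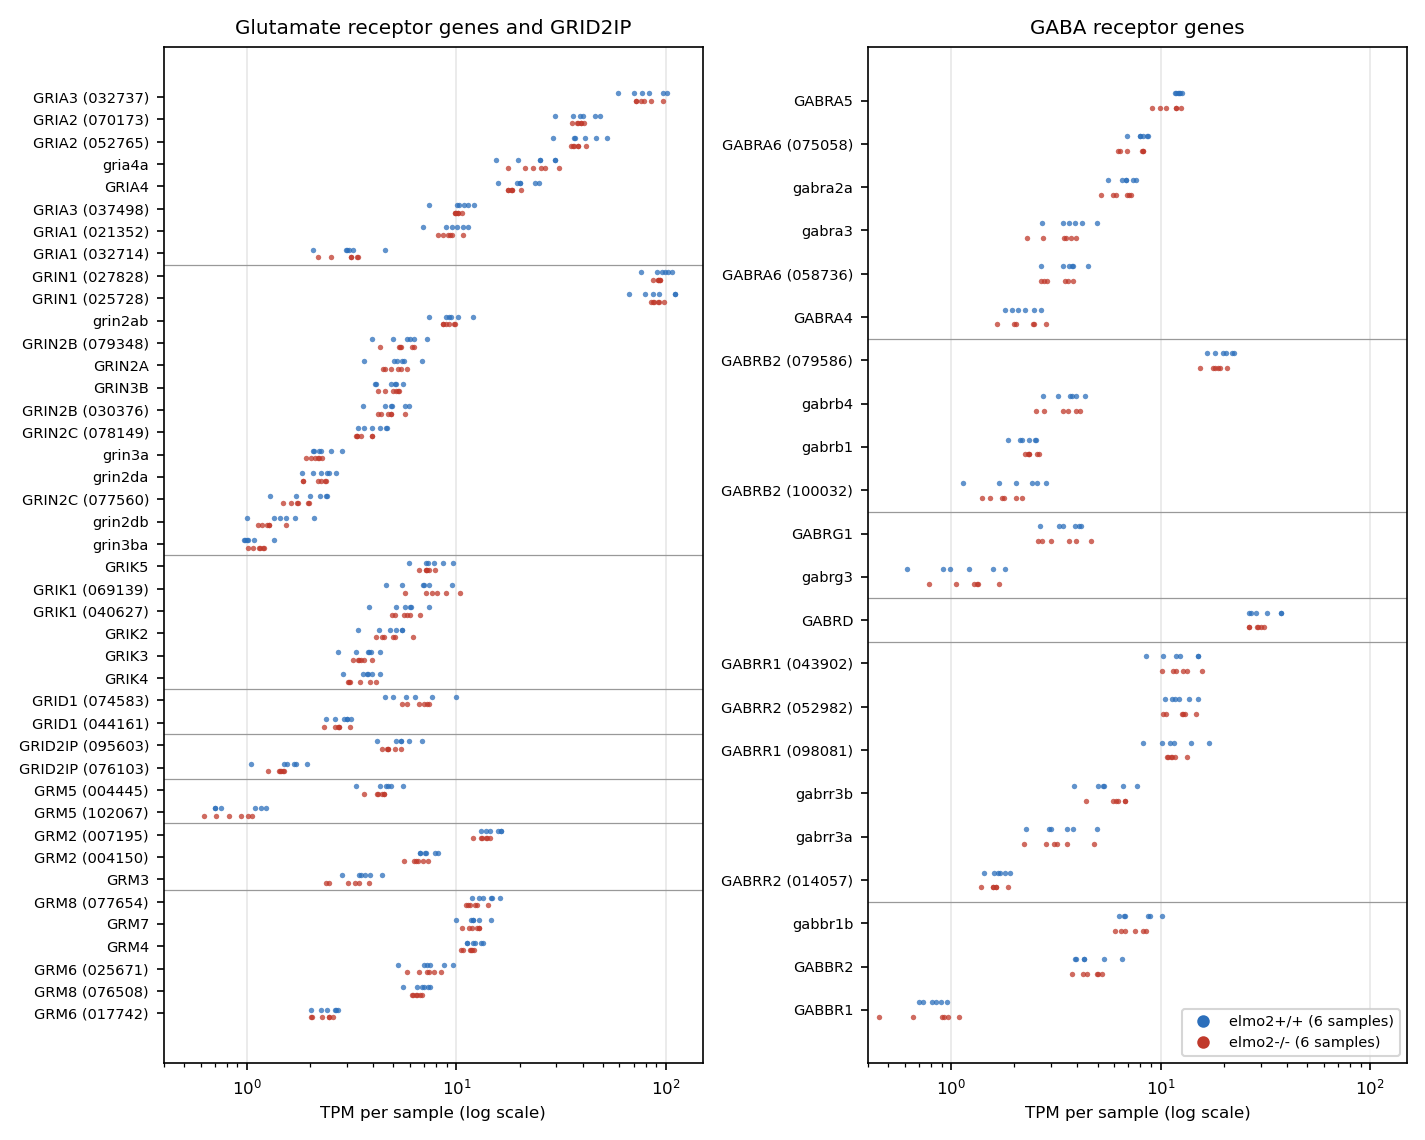
TPM of 64 of the 70 members in each sample on a log axis, elmo2+/+ in blue above elmo2-/- in red, 6 samples each, grouped by receptor class and ordered by mean level; numbers in parentheses are the last digits of the Ensembl identifier where a symbol has a pair of copies. Single values run from 0.454 TPM (GABBR1) to 111 TPM (GRIN1), and the genotypes overlap for every gene shown.

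Summed by class, the NMDA receptor genes (grin, 13 genes) and the AMPA receptor genes (gria, 8 genes) carried the most RNA. The grin sum was 176 to 265 TPM and the gria sum 165 to 278 TPM over the 12 samples. The grin sum was above the gria sum in 7 of 12 samples, so these classes did not differ beyond their spread. Metabotropic glutamate receptor genes (grm, 13 genes) followed at 82.6 to 111 TPM and lay below both in all 12 samples. Next came gabra at 43.2 to 59.7 TPM, gabrb at 42.6 to 55.0 TPM and gabrr at 39.0 to 60.1 TPM, whose ranges overlapped. Kainate receptor genes (grik) summed to 23.3 to 40.1 TPM and gabrd, a single gene, to 26.4 to 37.6 TPM. The lowest sums were those of gabrg (12.9 to 21.0 TPM), grid (12.3 to 22.5 TPM) and gabbr (11.2 to 17.6 TPM), and gabrg was above grid in 6 of 12 samples. For each of these 11 class sums the ranges of the genotypes overlapped. All 68 receptor genes together had 751 to 836 TPM in elmo2-/- and 645 to 960 TPM in elmo2+/+, and the ionotropic glutamate receptor genes made up 58.4% to 64.2% of this.

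In the comparison of genotypes, no member passed an adjusted p of 0.05. The share of all 22259 tested genes that did so was also 0%, and each of the 70 members had an adjusted p of 1.0 (edgeR quasi-likelihood test, Benjamini-Hochberg). DESeq2 and limma also called 0 members, and DESeq2 called 3 of all genes. At an unadjusted p under 0.05, 1 member was lower and 0 were higher in elmo2-/-, where 4.68% of all genes passed (2.13% lower, 2.55% higher). Its values are not reported here. No member had CPM values that separated the genotypes, against 0.198% of all genes (44 genes). Fitted levels were higher in elmo2-/- for 30 members and lower for 40, or 42.9% higher against 49.8% of all genes. Other scalings shifted the members together with all genes. With library size as the only scaling 18 members were higher (25.7%, against 43.6% of all genes), and with limma on log2 TPM (pseudocount 1 or 0.1) 14 or 13 (20% or 18.6%, against 37.7% of all genes).

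The differences were small, and their intervals bound them. The median log2 fold change was -0.024 over the members and -6.1e-04 over all genes. Its sign turned with single libraries, from -0.061 without elmo2+/+ replicate 4 to 0.029 without elmo2+/+ replicate 6, and it was also above 0 without elmo2-/- replicate 1 (0.018) or elmo2+/+ replicate 5 (0.0034). With only the elmo2-/- libraries numbered 7 and 8 it was 0.056, and with only those numbered 13 to 16 it was -0.067. In the fit of all samples, the median size of the fold change was 0.048 in the members against 0.079 in all genes. In 48 of 70 members the fold change was smaller than 0.1 (68.6%, against 59.8% of all genes), and in 66 smaller than 0.2 (log2). All 70 of the 95% intervals lay within -1 and 1, and 62 within -0.5 and 0.5, the outermost bounds being -0.60 and 0.61. The spread between pools of a genotype had an SD of 0.1 to 0.39 on the log2 scale. Its median was 0.21 in the members and 0.20 in all genes.

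**Figure D2:**
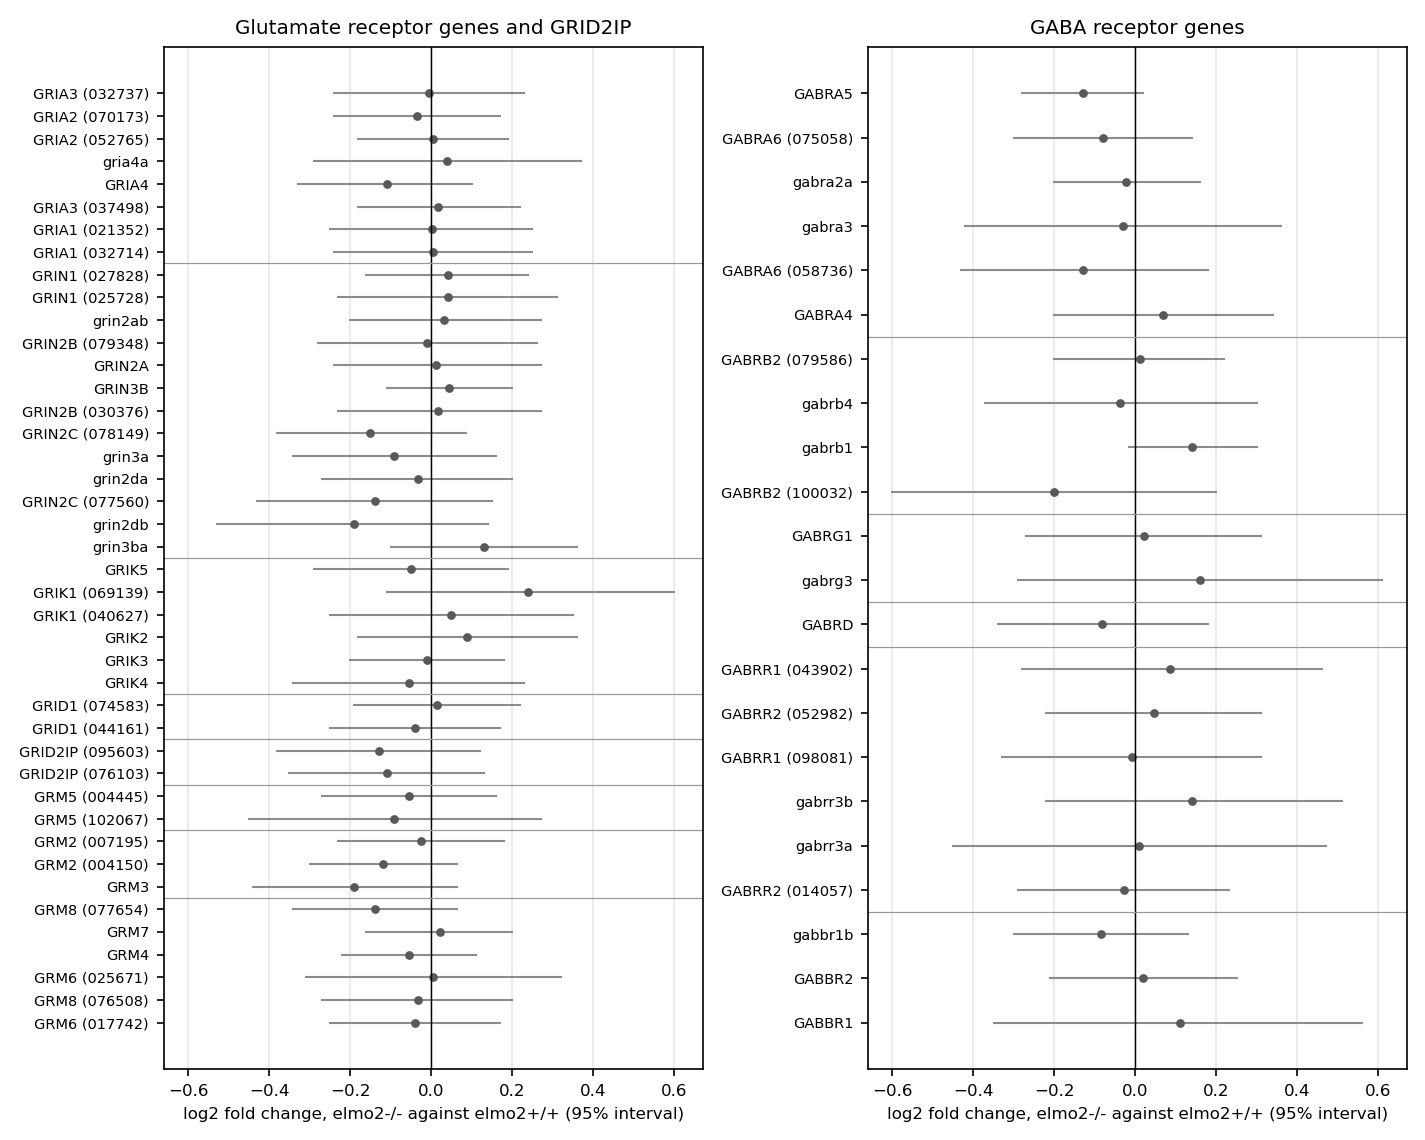
Log2 fold change, elmo2-/- against elmo2+/+, of 64 of the 70 members (points) with its 95% interval (lines) from the edgeR fit, grouped by receptor class. Fold changes lie between -0.20 and 0.24, and every interval shown includes 0.

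GABA-A receptors of the common type are pentamers of alpha, beta and gamma subunits. GABRG1 was at 3.50 TPM with a log2 fold change of 0.021 (95% interval -0.27 to 0.31). For gabrg3, the gene with the least RNA of the class, the samples ranged from 0.639 to 1.06 CPM in elmo2-/- and 0.553 to 1.15 CPM in elmo2+/+ (medians 0.833 and 0.711), with a log2 fold change of 0.16 and an unadjusted p of 0.456. These ranges overlapped widely.

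**Figure D3:**
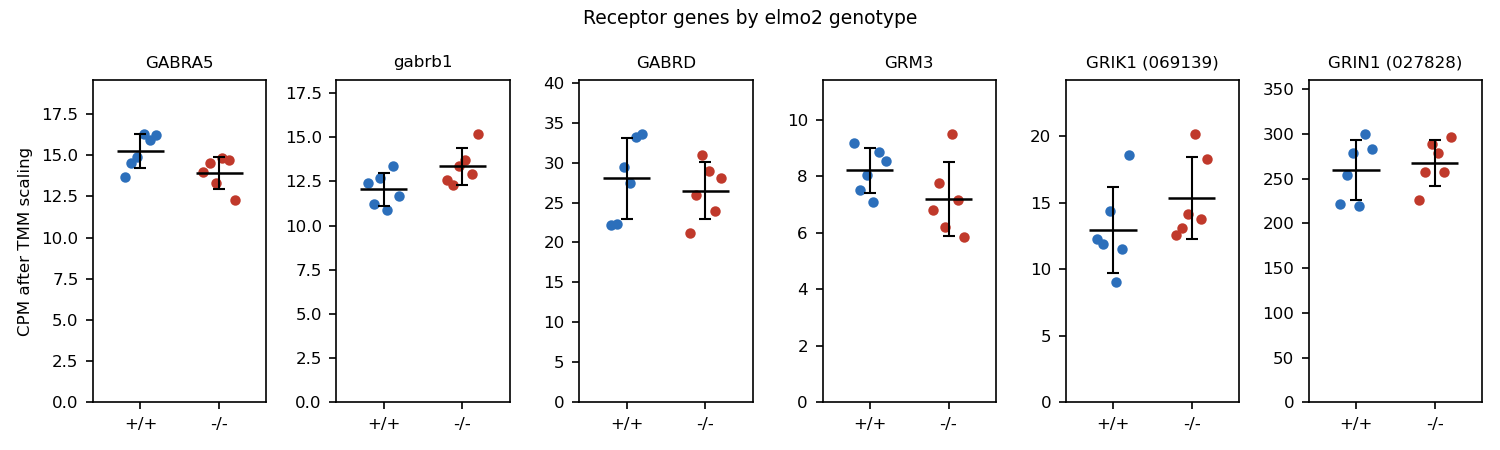
CPM of GABRA5, gabrb1, GABRD, GRM3, a copy of GRIK1 and a copy of GRIN1 in each sample (points, 6 per genotype; +/+ in blue, -/- in red) with the mean and SD (lines); axes start at 0. The genotypes overlap in every panel, with 2 of 6 elmo2-/- points of GABRA5 below and 2 of gabrb1 above all elmo2+/+ points. For GRM3, 3 elmo2-/- points lie below and 1 above all elmo2+/+ points, for GABRD 1 lies below and for GRIK1 1 above.

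Among the 7 alpha subunit genes, which with the beta subunits form the GABA binding site, 6 had a lower and 1 a higher fitted level in elmo2-/-, none with an unadjusted p under 0.05. GABRA5, whose subunit lies largely outside synapses in the mammalian hippocampus, had 12.3, 14.2 and 14.8 CPM in elmo2-/- and 13.7, 15.4 and 16.3 CPM in elmo2+/+. The log2 fold change of GABRA5 was -0.13 (95% interval -0.28 to 0.019, unadjusted p 0.0819), and 2 of 6 elmo2-/- samples lay below all of elmo2+/+. The other alpha genes in the plot of fold changes ran from -0.13 to 0.067. Only 4 of the 7 alpha genes were lower without elmo2+/+ replicate 6 or without elmo2-/- replicate 3. The count was also 4 with only the elmo2-/- libraries numbered 7 and 8, and 6 with only those numbered 13 to 16.

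Of the 5 beta subunit genes, 3 were higher and 2 lower, none with an unadjusted p under 0.05 in edgeR. Only 1 of 5 was higher without elmo2+/+ replicate 1 or 4, or without elmo2-/- replicate 4 or 6. The same count came with library size only, with limma, and with only the elmo2-/- libraries numbered 13 to 16. It was 4 without elmo2+/+ replicate 6, without elmo2-/- replicate 1, and with only the elmo2-/- libraries numbered 7 and 8. All 6 elmo2-/- samples of gabrb1 were above the elmo2+/+ median, with 12.3, 13.1 and 15.2 CPM against 10.9, 12.1 and 13.4 CPM. The log2 fold change of gabrb1 was 0.14 (95% interval -0.016 to 0.30, unadjusted p 0.0737). GABRD encodes the delta subunit, which takes the place of gamma in receptors outside synapses. At 30.1 TPM, it was the most abundant GABA receptor gene, and had 21.2, 27.0 and 30.9 CPM in elmo2-/- and 22.2, 28.4 and 33.6 CPM in elmo2+/+. Its log2 fold change was -0.082 (95% interval -0.34 to 0.18).

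Several GABA-A subunit genes are neighbours in the RefSeq annotation (GRCz12tu), as they are in mammals. The neighbours gabra2a, gabrg1 and gabrb1 had log2 fold changes of -0.022, 0.021 and 0.14, and gabrb4 and gabra3 had -0.037 and -0.031, so signs were mixed within the first group.

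The gabrr genes encode subunits of GABA-A channels that are best known from bipolar cells of the retina. Of the 6 gabrr genes, 4 were higher and 2 lower in elmo2-/-, with fold changes from -0.029 to 0.14. The count of higher genes was 1 without elmo2+/+ replicate 2 or elmo2-/- replicate 6. It was 2 with limma or with only the elmo2-/- libraries numbered 13 to 16. Without elmo2+/+ replicate 5 or 6, or without elmo2-/- replicate 1, 2 or 5, it was 5. With only the elmo2-/- libraries numbered 7 and 8 it was also 5. GABRR1 (ENSDARG00000043902), the most abundant at 12.4 TPM, had 10.4, 14.8 and 19.3 CPM in elmo2-/- and 9.23, 14.3 and 17.4 CPM in elmo2+/+ (log2 fold change 0.086, 95% interval -0.28 to 0.46). The genotypes overlapped over most of this range. For gabrr3b the values were 3.74, 6.21 and 6.80 CPM in elmo2-/- and 3.87, 4.78 and 7.38 CPM in elmo2+/+ (log2 fold change 0.14, unadjusted p 0.41). GABA-B receptors pair a GABBR1 with a GABBR2 subunit. The highest of the 3 genes was gabbr1b at 7.61 TPM, with 18.6, 21.1 and 24.1 CPM in elmo2-/- and 19.2, 22.1 and 27.0 CPM in elmo2+/+ (log2 fold change -0.085, 95% interval -0.30 to 0.13). GABBR2 had 4.68 TPM and a log2 fold change of 0.019, and GABBR1 had 0.828 TPM and 0.11.

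NMDA receptors need the GRIN1 subunit, which binds glycine, together with GRIN2 subunits, which bind glutamate, or GRIN3 subunits. The GRIN1 copies held 81.2% of the grin TPM on average, the grin2 genes 15.1% and the grin3 genes 3.63%. GRIN1 (ENSDARG00000027828) had 226, 267 and 296 CPM in elmo2-/- and 219, 267 and 300 CPM in elmo2+/+. Its genotypes had the same median and overlapped almost fully (log2 fold change 0.041, 95% interval -0.16 to 0.24, unadjusted p 0.666). The other copy, ENSDARG00000025728, was at 90.7 TPM with a log2 fold change of 0.041 (95% interval -0.23 to 0.31). At the low end, grin3ba (1.10 TPM) had 3.38, 3.84 and 4.2 CPM in elmo2-/- and 2.89, 3.42 and 4.21 CPM in elmo2+/+ (log2 fold change 0.13, unadjusted p 0.238). Over the 13 grin genes 7 were higher and 6 lower, with fold changes from -0.19 (grin2db) to 0.13. The count of higher genes was 2 without elmo2+/+ replicate 1 or 4, 3 with limma, and 9 without elmo2+/+ replicate 6 or elmo2-/- replicate 1. With only the elmo2-/- libraries numbered 13 to 16 it was 3, and with only those numbered 7 and 8 it was 9.

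Of 23 shares of subunits within classes that were computed, 1 did not overlap between the genotypes. The shares of a class have a common denominator, and some contain others, so they are not independent. No such count was made for other gene classes. The GRIN2C copies, whose subunit is best known from cerebellar granule cells in mammals, held 2.15% to 2.51% of the grin TPM in elmo2-/- and 2.55% to 2.79% in elmo2+/+. This share was picked out after the values were seen and was not tested. The fold changes of the GRIN2C genes themselves were -0.15 (95% interval -0.38 to 0.086) and -0.14 (95% interval -0.43 to 0.15), and their CPM overlapped.

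AMPA receptors carry most fast excitatory transmission, and the GRIA2 subunit limits their calcium permeability in mammals. The GRIA3 copies held 40.3% of the gria TPM, those of GRIA2 34.8%, GRIA4 19.4% and GRIA1 5.55%, on average over 12 samples. These shares rest on the length correction in TPM. GRIA1 (ENSDARG00000021352), at a mean of 9.42 TPM over the 12 samples, had a mean of 62.8 CPM in elmo2+/+. The GRIA3 copy ENSDARG00000032737, at 80.5 TPM, had 69.5 CPM. GRIA3 (ENSDARG00000032737) had 58.3, 69.3 and 79.7 CPM in elmo2-/- and 57.1, 67.6 and 87.4 CPM in elmo2+/+ (log2 fold change -0.0064, 95% interval -0.24 to 0.23). The elmo2-/- values lay within the elmo2+/+ range. Of the 8 gria genes 5 were higher and 3 lower, with fold changes from -0.11 (GRIA4) to 0.040 (gria4a). The count of higher genes was 0 without elmo2+/+ replicate 4 or elmo2-/- replicate 6, 7 without elmo2+/+ replicate 5 or 6, and 1 with library size only or limma. With only the elmo2-/- libraries numbered 13 to 16 it was 0, and with only those numbered 7 and 8 it was 7.

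Kainate receptors are built from GRIK1 to GRIK3, alone or with GRIK4 or GRIK5, which need one of the others to form a channel. The highest level was that of GRIK5 (7.49 TPM), with 18.8, 23.8 and 26.7 CPM in elmo2-/- and 20, 23.3 and 30.7 CPM in elmo2+/+ (log2 fold change -0.050, 95% interval -0.29 to 0.19). GRIK1 (ENSDARG00000069139) had 12.6, 14 and 20.2 CPM in elmo2-/- and 9.05, 12.1 and 18.6 CPM in elmo2+/+ (log2 fold change 0.24, 95% interval -0.11 to 0.60, unadjusted p 0.161). This was the largest fold change among the higher members. All 6 elmo2-/- samples were above the elmo2+/+ median, and 5 of them lay within the elmo2+/+ range. Delta receptors organise synapses. GRID1 (ENSDARG00000074583) had 13.3, 16.7 and 18.0 CPM in elmo2-/- and 13.5, 15.6 and 19.0 CPM in elmo2+/+ (log2 fold change 0.014, 95% interval -0.19 to 0.22). For GRID2IP (ENSDARG00000095603) the values were 12.8, 14.7 and 17.6 CPM in elmo2-/- and 13.7, 15.4 and 20.9 CPM in elmo2+/+ (log2 fold change -0.13, unadjusted p 0.282).

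Metabotropic receptors of group I raise intracellular calcium, those of groups II (GRM2, GRM3) and III (GRM4, GRM6, GRM7, GRM8) lower cyclic AMP, and GRM6 receives the photoreceptor signal in ON bipolar cells. Group III held 57.3% of the grm TPM, group II 26.2% and group I 16.5% on average. Of the 13 grm genes 11 had a lower fitted level in elmo2-/- and 2 a higher one, with a median log2 fold change of -0.055 and none at an unadjusted p under 0.05. The count of higher genes was between 0 and 6 when single libraries were left out, 6 without elmo2+/+ replicate 5 or without elmo2+/+ replicate 6, and 5 without elmo2-/- replicate 1. With limma on log2 TPM 0 of 13 were higher, as with only the elmo2-/- libraries numbered 13 to 16. With only those numbered 7 and 8 the count was 6.

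GRM2 (ENSDARG00000007195), the grm gene with the most RNA (14.2 TPM), had 37.3, 49.1 and 54.0 CPM in elmo2-/- and 40.1, 48.5 and 55.0 CPM in elmo2+/+. Its genotypes overlapped almost fully (log2 fold change -0.026, 95% interval -0.23 to 0.18). GRM3 had 5.86, 6.98 and 9.51 CPM in elmo2-/- and 7.09, 8.31 and 9.17 CPM in elmo2+/+. Here 3 elmo2-/- samples were below all of elmo2+/+ and 1, elmo2-/- replicate 4, was above all of it (log2 fold change -0.19, 95% interval -0.44 to 0.064, unadjusted p 0.133).

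The files list 36 members as 18 pairs that share a symbol, with no letter to tell copy a from copy b, so copies are given by identifier. How reads shared by near-identical copies were split between them is not given in the sources used here. In 13 of 18 pairs the same copy had the higher TPM in all 12 samples, and in 8 pairs it was more than 2-fold higher in every sample. Among the most unequal in TPM were GABRB2 (median ratio 10.1, from 6.47 to 17.5), GRIA3 (median 7.98) and GABRR2 (median 7.75). Copies at close to equal TPM were those of GRIN1 (median ratio 1.02, from 0.917 to 1.15) and GRIA2 (median 1.03, from 0.88 to 1.1). These ratios rest on the length correction in TPM. Mean CPM of the GRIA3 copies in elmo2+/+ were 69.5 and 41.8. For GRIN2B and GRIN1 the copy with the higher mean TPM had the lower CPM (19.9 against 37.7, and 260 against 367 in elmo2+/+). The transcript lengths behind the TPM were not examined. The 5 pairs without a constant order were GRIN1, GRIA2, GABRR1, GRIN2B and GRIK1.

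**Figure D4:**
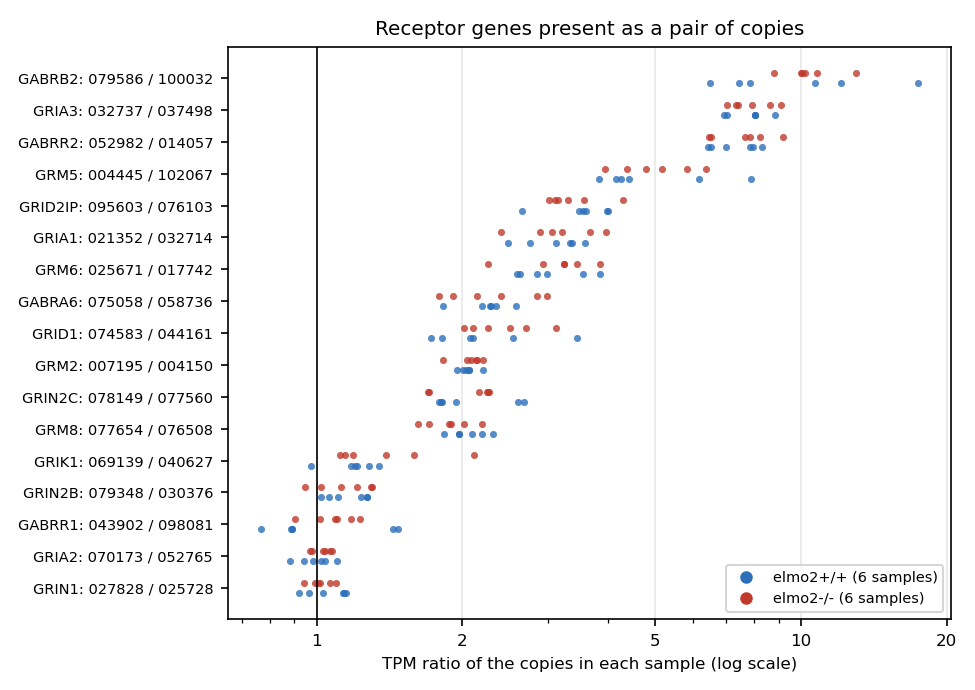
Ratio of the TPM of the copies that share a symbol, for 17 of the 18 pairs in each sample, on a log axis; the copy named first has the higher mean, elmo2-/- in red above elmo2+/+ in blue, 6 samples each, and the line marks equal levels. Ratios for GABRB2 are near 10 and those for GRIN1 and GRIA2 near 1, with both genotypes overlapping in every pair shown.

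From sample to sample, many members deviated in the same direction. The median deviation of the members from their 12-sample medians was 0.26 (log2) in elmo2+/+ replicate 6, where 65 of 70 members were above their median. It was -0.24 in elmo2-/- replicate 1 (8 of 70 above), -0.18 in elmo2+/+ replicate 4 (7 above) and -0.16 in elmo2+/+ replicate 1 (13 above). The 20 pan-neuronal markers had median deviations of 0.19, -0.26, -0.20 and -0.22 in the same samples. The median of all genes lay within 0.0036 of 0 in every sample, where the TMM scaling largely holds it. That median therefore does not show whether other genes moved with the sample. The same 4 samples were at the ends of the main axis of variation over all tested genes (first principal component, 36.7% of the variance). They lay there at 42.9 (elmo2+/+ replicate 6), -45.2 (elmo2-/- replicate 1), -32.1 (elmo2+/+ replicate 4) and -36.7 (elmo2+/+ replicate 1). Both genotypes held samples at the high and at the low end. The part of this shared deviation in the small differences between genotypes was not tested. Without both samples numbered 1, a setting chosen after the data were seen, 0 members passed the adjusted threshold in edgeR, 1 had an unadjusted p under 0.05 and 31 were higher.

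**Figure D5:**
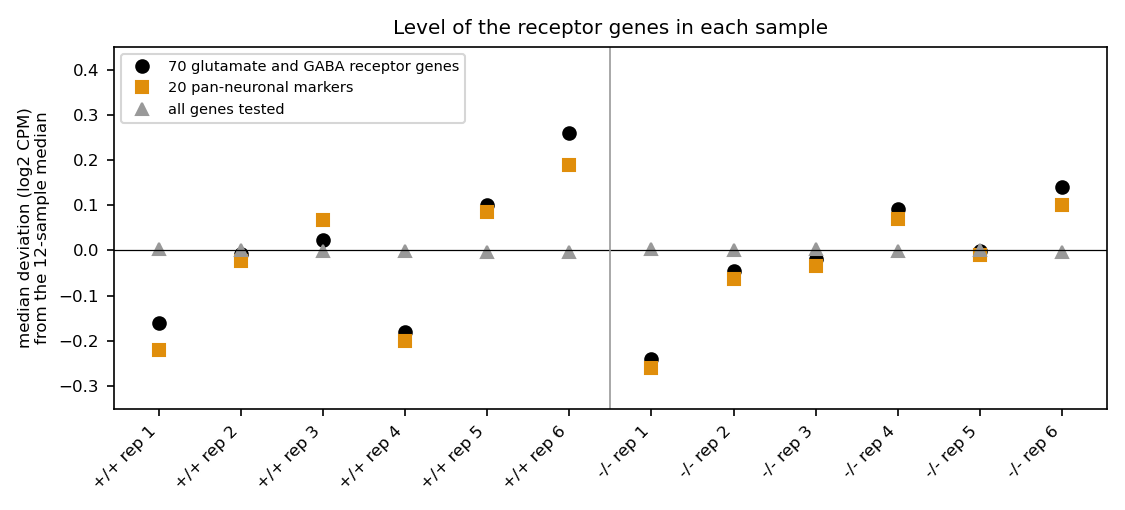
Median deviation from the 12-sample median (log2 CPM) of the 70 members (black circles), 20 pan-neuronal markers (orange squares) and all genes tested (grey triangles), for each sample, elmo2+/+ left and elmo2-/- right of the line. The members reach from -0.24 to 0.26 and the neuronal markers lie near them in each sample. All genes stay near 0, where the TMM scaling largely holds their median.

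Genes that act beside the receptors were read from lists. In none of these lists did a gene pass the adjusted threshold. Of 23 genes for glutamate supply and uptake, 2 were higher and 2 lower at an unadjusted p under 0.05 (17.4%, against 4.68% of all genes; median log2 fold change -0.084). These genes were not tested as a group. SLC1A4 (ENSDARG00000000551), which encodes a transporter of neutral amino acids such as alanine and serine, had 27.1, 37.7 and 43.1 CPM in elmo2-/- and 22.6, 25.7 and 26.7 CPM in elmo2+/+. These ranges did not overlap (log2 fold change 0.51, SE 0.12, unadjusted p 6.93e-04, adjusted p 1.0 with edgeR, exact two-sided permutation p 0.00216). SLC1A3 (ENSDARG00000043148), a glial glutamate transporter, had 26.6, 28.2 and 30.7 CPM in elmo2-/- against 30.1, 32.3 and 34.3 CPM. In 5 of 6 elmo2-/- samples SLC1A3 was below all elmo2+/+ samples (log2 fold change -0.19, SE 0.056, unadjusted p 0.00512, adjusted p 1.0). For the glutamine synthetase gene glulc (ENSDARG00000013227), which was at 1.21 TPM, the log2 fold change was 0.48 (unadjusted p 0.00917).

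Of 12 genes for GABA supply and uptake, 0 passed an unadjusted p of 0.05 (edgeR; median log2 fold change -0.043), and of 7 glycine receptor genes also 0 (median -0.023). Among 31 auxiliary receptor subunit genes 1 was higher and 1 lower (3.23% each, against 2.55% and 2.13% of all genes). These were KCTD12 (ENSDARG00000069843), an auxiliary subunit of GABA-B receptors (log2 fold change 0.35, unadjusted p 0.0144), and shisa7a (ENSDARG00000062462), of a family that binds AMPA or GABA-A receptors (log2 fold change -0.20, unadjusted p 0.0134). Of 41 tested genes for postsynaptic scaffolds and receptor binding proteins 2 were lower, among them homer3a (ENSDARG00000102532) with -0.79 (unadjusted p 0.017) at no more than 0.963 CPM. In this list 4.88% were lower and 0% higher, against 2.13% and 2.55% of all genes. Over the whole list 10 had a higher and 31 a lower fitted level (median log2 fold change -0.048), where 49.8% of all genes were higher. For glutamate supply and uptake 7 were higher and 16 lower, for GABA supply and uptake 5 and 7. For auxiliary subunits the counts were 14 and 17, and for glycine receptors 1 and 6. These directions were not tested.

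Markers of the tissues in a whole larva were read in the same way. Of 20 pan-neuronal markers 0 passed an unadjusted p of 0.05 in edgeR (median log2 fold change -0.026), nor did any of 13 markers of other retinal cells (0.017), 9 of astroglia and radial glia (-0.023) or 8 of hepatocytes (0.076). Of 20 photoreceptor markers 1 was higher, sagb (ENSDARG00000038378, 0.28), of 8 myelinating cell markers 2, among them plp1b (ENSDARG00000011929, 0.23), of 10 skeletal muscle markers 1, TNNT3 (ENSDARG00000030270, 0.28), and of 6 skin markers 1, icn2 (ENSDARG00000055514, 0.21). Of 7 immune cell markers 2 were lower, lyz (ENSDARG00000057789, -0.34) and csf1ra (ENSDARG00000102986, -0.52). The other 5 immune cell markers had a higher fitted level in elmo2-/-, and the median log2 fold change of this list was 0.049. Each of these counts is of 1 or 2 genes. They make up 5% of the photoreceptor, 25% of the myelinating cell, 10% of the muscle and 16.7% of the skin markers, against 2.55% of all genes that were higher, and 28.6% of the immune cell markers, against 2.13% that were lower. Over whole lists, the median log2 fold change was 0.028 for photoreceptor (11 higher, 9 lower) and 0.03 for myelinating cell markers (4 higher, 4 lower). It was 0.12 for muscle (7 higher, 3 lower) and 0.052 for skin markers (4 higher, 2 lower). Of the pan-neuronal markers 7 were higher and 13 lower, of those of other retinal cells 10 and 3. The counts were 4 and 5 for astroglia and radial glia, and 6 and 2 for hepatocytes. Summed levels of all these marker lists overlapped between genotypes. The part of these markers in the receptor values was not tested.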

How the data were processed

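RNA of 12 pools of larvae was sequenced on the BGISEQ-500. Estimated counts per gene were deposited by the authors without scaling. The TPM values, also deposited by the authors, correct for transcript length and have the same total in each sample. The submitters' processing notes name Trim Galore 0.6.4, kallisto and the build GRCz11. The annotation is not given in the sources used here. Symbols were added by Ensembl identifier (29201 of 32520 identifiers had one), many of them in human style. RefSeq GRCz12tu was used only for names and the order of genes.

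Estimated counts were rounded to whole numbers and tested with edgeR 4.0.16 in R 4.3.3 (filterByExpr with a minimum count of 10, TMM, quasi-likelihood test with genotype as the only term) and adjusted over all 22259 genes tested by the Benjamini-Hochberg method. The SE of a log2 fold change was taken from its size and the F statistic (size over root F). The biological coefficient of variation was 0.171, and for genes with few counts, such as gabrg3 (from 11 counts) and GABBR1 (from 20), counting error adds to the spread between pools. On simulated data with 200 genes changed by a log2 fold change of 1, 88.5% were recovered in this comparison (22111 genes tested) and 6 unchanged genes were called. The simulated counts were drawn independently for each gene, without a deviation shared by many genes of a sample. The recovery therefore does not carry over to the measured data or to smaller fold changes. In the measured data elmo2, at a log2 fold change of -0.93, had an edgeR adjusted p of 0.642. Exact permutation tests used log2 CPM (prior count 2) and all 924 ways to choose 6 of 12 samples. Alternatives used DESeq2 1.42.0, limma 3.58.1, other filters and scalings, and fewer libraries.

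The rule for named genes took the member with the highest mean TPM of each class, the 5 higher and 5 lower members with the smallest unadjusted p, and up to 3 genes per list of other genes, those with an unadjusted p under 0.05 by smallest p. The members, the lists and the alternatives were chosen with earlier results of these data known. Identical pools were looked for, and 0 pairs of samples had identical values. Values of some genes that the rule takes are not reported here. Protein comparison of the copies was planned and not run here.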

Additional observations from a re-analysis of the deposited data

Results flagged for a closer look

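The values of 16 named members and of class sums were screened for single samples that stand apart from the other 5 of their genotype, 60 groups in all, of which chance gives about 1 in 20. In elmo2+/+ replicate 4 the summed level of the alpha subunit genes was 45.8 TPM, against 55.4 to 59.7 TPM in the others. This sample was also the lowest of all 12 for the sum of the receptor genes (645 TPM) and of the pan-neuronal markers (1936 TPM). In elmo2-/- replicate 1, gabrr3b had 3.74 CPM, against 5.69 to 6.80 CPM.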

How the results depend on the processing

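No member passed an adjusted p of 0.05 under any of the 23 alternatives. At an unadjusted p under 0.05 the count of members was 2 with limma on log2 TPM with either pseudocount, 3 with only the elmo2-/- libraries numbered 7 and 8, and from 1 to 3 without single libraries. Members with a higher fitted level numbered 18 with library size only (25.7%, all genes 43.6%). With limma they numbered 14 and 13 (pseudocount 1 and 0.1, 20% and 18.6%, all genes 37.7%). There were 13 with only the elmo2-/- libraries numbered 13 to 16 (18.6%, all genes 50%). With only those numbered 7 and 8 there were 42 (60%, all genes 48.4%). Without single libraries the count ran from 11 (without elmo2-/- replicate 6) to 43 (without elmo2+/+ replicate 6). Over all genes, 3 passed the adjusted threshold with DESeq2 and 0 with every other alternative. The fold change of GABRR1 (ENSDARG00000043902) changed sign with the libraries 13 to 16 (-0.057), that of GRIA3 (ENSDARG00000032737) with the libraries 7 and 8 (0.10), that of GRID1 (ENSDARG00000074583) with library size only (-0.0054) and the libraries 13 to 16 (-0.027), and that of GRIN1 (ENSDARG00000027828) with limma (-0.041 and -0.041). Many members had ranges that crossed 0 without single libraries, such as GABBR2 (-0.029 to 0.10) and GABRG1 (-0.055 to 0.072). Among the reported members that the rule for named genes takes, such ranges were -0.011 to 0.17 for GABRR1, -0.059 to 0.070 for GRIA3, -0.032 to 0.067 for GRID1, -0.10 to 0.030 for GRIK5, -0.0047 to 0.087 for GRIN1 and -0.076 to 0.037 for GRM2. Each of these values is smaller than the SD of its gene between single pools of a genotype, and the cause was not tested. The SE is the closer yardstick for a fold change. For GABRR1 (ENSDARG00000043902) the SE was 0.17 in the fit of all samples, against an SD of 0.34. Not every pair of same-numbered samples deviated together (correlations from -0.252 to 0.619, best with their own number for 2 of 6). Pairing by number was thus not evident throughout, and the labels do not say whether the numbers pair the samples. With the replicate number as a block, 1 member had an unadjusted p under 0.05, 32 were higher, GRIA3 changed sign (0.0043), and 1445 genes in place of 1041 had an unadjusted p under 0.05, 0 after adjustment. The member gabrg3 was not tested with a minimum of 1 CPM in 6 samples.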
